A study of Mus musculus with 9 samples.

Results

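Dazl, Ddx4, Mael, Sycp1, Sycp3, Asz1, Mov10l1 and Tex101 are mouse genes whose main known roles lie in germ cells. These 8 genes were chosen by name from the 37273 genes of the GENCODE vM1 annotation, of which 22367 were protein-coding. Their chromatin was followed in ATAC-Seq peak files of 9 libraries, with 1 library per condition and no replicates, so no difference between conditions could be tested. The D0 library held unsorted mouse embryonic fibroblasts (MEFs) from E13.5 embryos with an IRES-EGFP cassette behind Oct4 (Pou5f1). All other libraries came from such MEFs infected with pMXs retroviruses for Oct4, Sox2, Klf4 and c-Myc (OSKM). D3 cells were unsorted, D6T- and D9T- cells were sorted as Thy-1-, D12S+ and D16S+ cells as SSEA-1+, and the iPSCs were fully reprogrammed, the digits giving the days after induction. A pair of further day 6 libraries, D6 siH3.3 and D6 siNT, came from OSKM cells that also received siRNA against the H3.3 genes or non-targeting siRNA. The paper describes this knockdown as transient and made at the start of reprogramming, before the day 6 harvest. GEO lists both as Thy-1-, whereas the sample table of the study gives no sorting for them. Retroviral OSKM cultures are mixtures, and a low signal in a library cannot be told apart from a strong signal in few of its cells.

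Germ cells silence transposons with piRNAs, short RNAs that are made and loaded in cytoplasmic granules called nuage, and they recombine their chromosomes in meiosis. In somatic cells many of the promoters that serve these tasks carry DNA methylation or repressors of the Polycomb group PRC1.6, which holds the DNA-binding proteins E2F6 and Mga with its partner Max. Dazl binds mRNAs and is needed for germ cell commitment, and Ddx4 (Vasa) is an RNA helicase of the nuage. Mael, Asz1 (also known as Gasz) and Mov10l1, an RNA helicase, act in the piRNA pathway. Sycp1 forms the transverse filaments and Sycp3 the axes of the synaptonemal complex, which joins homologous chromosomes in meiosis. Tex101 is a glycoprotein of the germ cell surface.

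The promoter windows whose letters the comparison turns on are printed for 5 of the genes. Each window holds 250 bases before and 50 after a start of the annotation, on the strand of the gene and in mm9, read from the genome. Capitals mark CACGTG, the E-box bound by Max and Mga, and TCCCGC, the core of the E2F6 site (or its reverse complement GCGGGA). Dazl is shown because it was accessible in every library, Mael and Sycp3 because they were called late, Ddx4 because it was called in iPSCs, and Sycp1 because it was never called.
Dazl, shorter transcript, chr17:50432168-50432467, minus strand: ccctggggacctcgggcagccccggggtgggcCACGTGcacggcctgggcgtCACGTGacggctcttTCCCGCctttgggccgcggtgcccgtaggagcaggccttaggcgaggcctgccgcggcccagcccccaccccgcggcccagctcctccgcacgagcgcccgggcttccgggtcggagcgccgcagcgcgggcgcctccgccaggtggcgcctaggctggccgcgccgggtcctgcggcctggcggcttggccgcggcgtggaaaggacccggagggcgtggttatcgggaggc
Mael, chr1:168168826-168169125, minus strand: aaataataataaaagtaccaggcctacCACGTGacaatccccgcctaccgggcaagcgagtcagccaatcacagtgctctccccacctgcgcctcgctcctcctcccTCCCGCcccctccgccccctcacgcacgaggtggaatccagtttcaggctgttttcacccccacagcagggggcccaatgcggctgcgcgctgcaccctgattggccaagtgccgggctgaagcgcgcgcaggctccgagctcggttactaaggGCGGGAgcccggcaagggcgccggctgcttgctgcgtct
Sycp3, chr10:87922064-87922363, plus strand: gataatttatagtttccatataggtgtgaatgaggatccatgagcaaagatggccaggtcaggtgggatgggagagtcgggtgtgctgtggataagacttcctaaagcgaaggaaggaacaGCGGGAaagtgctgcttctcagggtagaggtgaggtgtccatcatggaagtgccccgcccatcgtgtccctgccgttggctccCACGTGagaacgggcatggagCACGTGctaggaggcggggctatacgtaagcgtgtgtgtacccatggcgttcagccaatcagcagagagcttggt
Ddx4, chr13:113442469-113442768, minus strand: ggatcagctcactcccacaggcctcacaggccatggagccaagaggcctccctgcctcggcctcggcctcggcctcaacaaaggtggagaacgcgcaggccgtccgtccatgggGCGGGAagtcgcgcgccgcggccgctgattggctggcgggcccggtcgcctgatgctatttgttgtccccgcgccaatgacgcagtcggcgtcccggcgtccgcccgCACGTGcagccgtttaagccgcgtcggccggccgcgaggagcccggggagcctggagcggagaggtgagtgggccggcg
Sycp1, chr3:102739974-102740273, minus strand: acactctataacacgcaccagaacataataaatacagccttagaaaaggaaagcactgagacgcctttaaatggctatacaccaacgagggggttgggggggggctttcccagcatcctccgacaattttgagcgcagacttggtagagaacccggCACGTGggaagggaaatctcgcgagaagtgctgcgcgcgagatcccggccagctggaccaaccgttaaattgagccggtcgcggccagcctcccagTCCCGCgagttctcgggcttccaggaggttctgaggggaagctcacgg

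The E-box letters lay within this window at the 5′ end of the gene in 5 of the 8 genes, namely Ddx4, Mael, Sycp1, Sycp3 and Mov10l1. They were found in 7.78% of the promoters of all protein-coding genes. The E2F6 core was present in Ddx4, Mael, Sycp1 and Sycp3, so that 4 of the 8 held both motifs, against 24.4% of all promoters for the core and 2.52% for both. Sycp3 had E-boxes that began 46 and 25 bases before its start, and the one of Ddx4 began 29 bases before it. Asz1, Tex101 and the longer Dazl transcript held neither motif. The shorter Dazl transcript starts 707 bases further into the gene, and there E-boxes began 218 and 198 bases before the start and an E2F6 core 183 bases before it. In a wider list of germline genes, 16 of the 67 that are protein-coding in the annotation held the E-box (23.9%), 20 held the E2F6 core (29.9%) and 4 held both (5.97%). Among promoters with a region in all 7 time-course libraries, which are rich in CpG, the shares were 10.3%, 37.4% and 3.99%. A match of letters describes the window and does not show that a factor was bound.

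All 8 promoters were rich in CpG dinucleotides. CpG observed over expected, the number of CpGs relative to that given by the C and G content, was lowest at Sycp3 (0.625) and highest at Ddx4 (0.978). Mov10l1 had 0.740, Tex101 0.700, Mael 0.780, Asz1 0.783, Sycp1 0.874 and Dazl 0.830 at the 5′ end of the gene and 0.870 at the shorter transcript. The median was 0.534 over all protein-coding promoters, 0.779 over those with a promoter region in all 7 time-course libraries, and 0.161 over those with none. Each of the 8 genes was nearer to 0.779 than to 0.161.

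**Figure D1:**
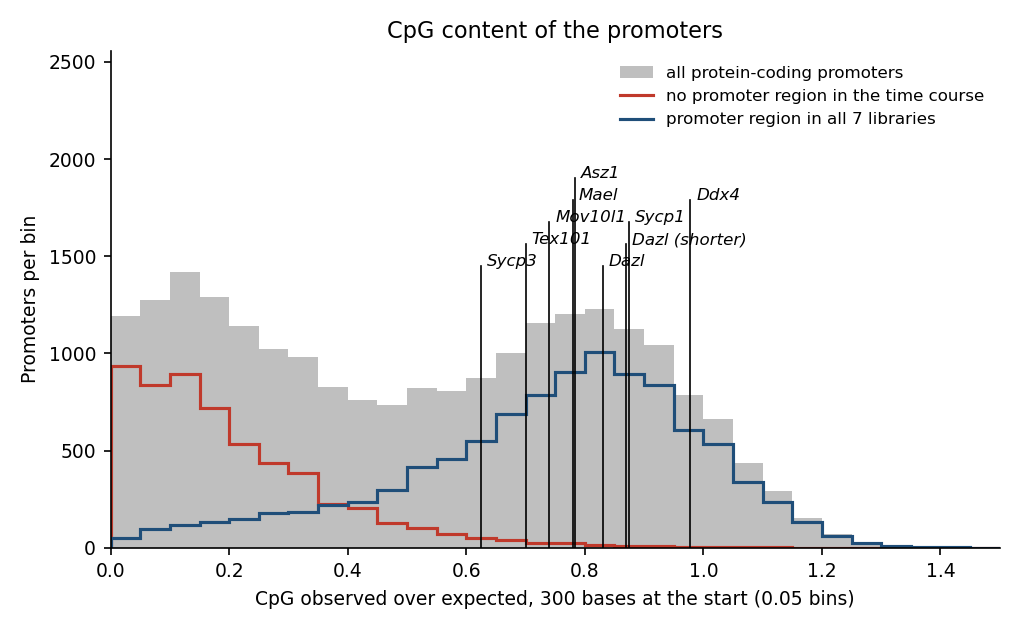
Histogram of CpG observed over expected in 300 bases at the 5′ end of protein-coding genes (x axis, bins of 0.05) against the number of promoters per bin (y axis), for all promoters (grey), those with a promoter region in all 7 time-course libraries (blue) and those with none (red). Black lines mark the 8 germline genes, with a line of its own for the shorter Dazl transcript, and all lie at 0.625 or above.

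A promoter region was a merged MACS2 peak that shared at least 1 bp with the 3 kb upstream of any annotated transcript start. Its level is given as the tags over its highest summit and as CPM, which is tags per 1000000 tags of the library, with a 95% exact Poisson interval that covers counting error only. By this measure 1 of the 8 genes, Dazl, had a promoter region in D0, D3, D6T-, D9T- and D12S+. At D16S+ there were 3 (Dazl, Mael and Sycp3), and in iPSCs 6, with Ddx4, Mov10l1 and Tex101 added. Sycp1 and Asz1 had none in any library. Of all protein-coding genes, 58.0% had a promoter region in D0, 67.8% in D3, 68.3% in D6T-, 50.4% in D9T-, 63.0% in D12S+, 63.0% in D16S+ and 63.9% in iPSCs. The germline genes thus stood at 12.5% where these shares were 50.4% to 68.3%, and at 75.0% in iPSCs.

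**Figure D2:**
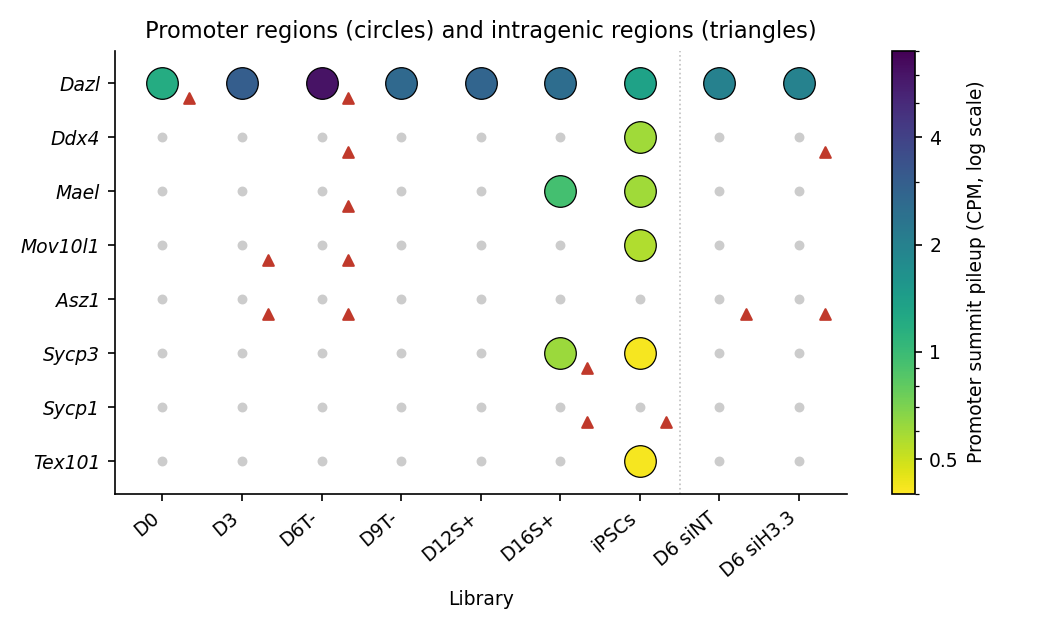
Promoter regions of the 8 germline genes (rows) in the 9 libraries (columns), with circles coloured by summit pileup in CPM on a log scale, small grey dots where no promoter region was called, and red triangles where a region lay in the body of the gene. Circles fill the whole row of Dazl and otherwise stand only in the D16S+ and iPSC columns, and the D6T- column holds triangles in 5 rows.

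Most promoters with as many CpGs were accessible from the start. Of the 9682 protein-coding promoters with CpG observed over expected of at least 0.625, the value of Sycp3, 86.2% had a promoter region in D0, 96.4% in D3, 80.3% in D9T- and 95.3% in iPSCs. Only 164 of them (1.69%) had none in the time course, and Sycp1 and Asz1 were 2 of these. This limit was set from the 8 genes themselves, so the shares serve as a description.

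Dazl was the only one of the 8 that was accessible in every library. Its promoter summit carried 38 tags in D0, 91 in D3, 131 in D6T-, 35 in D9T-, 49 in D12S+, 54 in D16S+ and 36 in iPSCs. In CPM these were 1.20 (0.848 to 1.64) in D0, 3.01 (2.42 to 3.70) in D3 and 6.12 (5.12 to 7.27) in D6T-. The later libraries had 2.65 (1.85 to 3.68) in D9T-, 2.78 (2.06 to 3.68) in D12S+, 2.55 (1.92 to 3.33) in D16S+ and 1.35 (0.949 to 1.88) in iPSCs. D6T- was therefore the highest by a margin beyond counting error, D0 and iPSCs had the lowest values with overlapping intervals, and the intervals of D3, D9T-, D12S+ and D16S+ overlapped one another. The interval of iPSCs also overlapped that of D9T-. Accessible promoters in general followed the same course. The median over 9818 protein-coding promoters called in all 9 libraries was 0.946 CPM in D0, 3.83 in D6T- and 1.20 in iPSCs, and Dazl stood at 1.27, 1.60 and 1.12 times these medians. Relative to this median, Dazl was highest in D9T- (1.75) and lowest in D16S+ (1.10). A promoter region in all 7 time-course libraries was found for 45.4% of protein-coding genes.

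**Figure D3:**
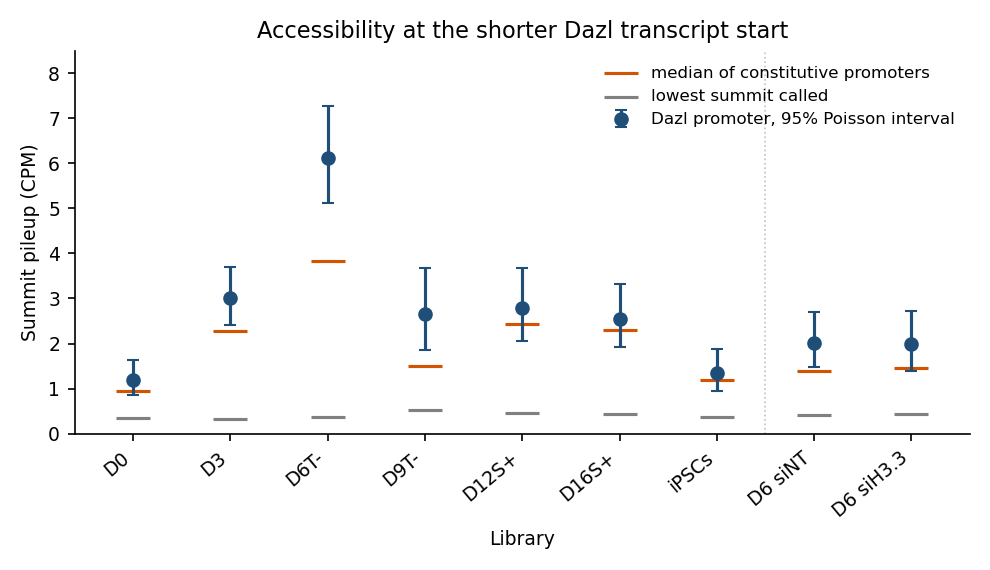
Summit pileup of the Dazl promoter region in CPM (y axis, points with 95% Poisson intervals) in each library (x axis), with the median of promoters called in all 9 libraries (orange bars) and the lowest summit called in the library (grey bars). Dazl lies above the orange bar in each library, is highest in D6T- (6.12) and lowest in D0 (1.20) and iPSCs (1.35).

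The Dazl region did not lie at the 5′ end of the gene. Dazl occupies chr17:50418719-50432924 on the minus strand, and its summits lay between 50432155 and 50432232, from 15 bases before to 62 bases after the start of the shorter transcript at 50432217. In D0 the region spanned 50432001 to 50432515 and thereby all 300 bases of the Dazl window printed above, and it shared no base with the window at the 5′ end. The start that RefSeq gives for Dazl, placed in mm9 by an exact match of its promoter sequence, lies 21 bases before the GENCODE 5′ end. No region reached that 5′ end or the 3 kb upstream of it in any library. A second and weaker region lay in an intron of Dazl, 1169 bases after the shorter start in D0 (20 tags, 0.631 CPM) and 1167 bases after it in D6T- (16 tags, 0.748 CPM).

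Ddx4, on the minus strand of chr13:113388541-113442518, had a promoter region in iPSCs alone. It spanned 113442371 to 113442703, held 16 tags at a summit 55 bases upstream of the start, and reached 0.602 CPM (0.344 to 0.978). This was 0.500 of the median of the promoters called in all 9 libraries. The summit lay close to the E-box of Ddx4. At the same CPM, D3 would have held 18.2 tags against a lowest called summit of 10, D6T- 12.9 against 8, D9T- 7.95 against 7, D12S+ 10.6 against 8 and D16S+ 12.7 against 9. The interval of Ddx4 reached down to 0.344 CPM and held the lowest summit called in D0 (0.347 CPM), D6T- (0.374), D9T- (0.530), D12S+ (0.454) and D16S+ (0.425). By CPM a missed call in these libraries thus lay within counting error. The median of the promoters called in all 9 libraries was higher in D6T- (3.83 CPM), D12S+ (2.44) and D16S+ (2.31) than in iPSCs (1.20). Scaled to it, a share of 0.500 would have lain above the lowest summits called in D6T-, D12S+ and D16S+. The same held in D0 (median 0.946 CPM), D3 (median 2.28 CPM, lowest summit 0.331 CPM) and D9T- (median 1.51 CPM). Scaled likewise, the lower end of the interval (0.344 CPM) would have lain above the lowest summits called in D3, D6T-, D12S+ and D16S+. In D0 and D9T- it would have lain below them. No test of these margins was run.

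Mael was called first at D16S+. The gene lies on the minus strand of chr1:168131516-168168875, and its promoter summit held 20 tags in D16S+ (0.945 CPM, 0.577 to 1.46) and 16 in iPSCs (0.602 CPM, 0.344 to 0.978). The intervals overlapped. Relative to the promoters called in all libraries the order was turned, with 0.408 of their median in D16S+ and 0.500 in iPSCs. The summits lay 62 bases upstream and 80 bases downstream of the start. A signal at the D16S+ level in CPM would have given 16.6 tags in D12S+, where 8 sufficed for a call, and 30.0 in D0, where 11 did. At the lower iPSC level it would have given 10.6 in D12S+ and 7.95 in D9T-, where 7 sufficed. The iPSC interval held the lowest summits called in D0 (0.347 CPM), D6T- (0.374), D9T- (0.530) and D12S+ (0.454). By CPM a missed call at that level thus lay within counting error in these libraries. The interval at the D16S+ level began at 0.577 CPM, above the lowest summit called in every earlier library (at most 0.530 CPM, in D9T-). Scaled to the promoters called in all libraries, shares of 0.408 and 0.500 would both have lain above those lowest summits.

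Mov10l1, on the plus strand of chr15:88813339-88885582, had a promoter region in iPSCs alone, with 15 tags at a summit 263 bases upstream of the start and 0.564 CPM (0.316 to 0.931). The region covered the whole window of 300 bases, with the E-box that began 161 bases before the start. This level in CPM would have given 17.9 tags in D0 against a minimum of 11, 7.46 in D9T- against 7, 9.94 in D12S+ against 8 and 11.9 in D16S+ against 9. Its interval held the lowest summits called in these 4 libraries, so by CPM a missed call there lay within counting error. Relative to the promoters called in all 9 libraries, Mov10l1 stood at 0.469 of their median in iPSCs. That share of the median in D12S+ (2.44 CPM) and D16S+ (2.31 CPM) would have lain above the lowest summits called there. It would also have done so in D0 (median 0.946 CPM), D3 (2.28), D6T- (3.83) and D9T- (1.51). Asz1, the other piRNA factor, lies on the minus strand of chr6:18000964-18059061 and had no promoter region in any library, although its promoter held 17 CpGs.

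Sycp3 and Sycp1 encode partners in one structure and differed in these files. Sycp3, on the plus strand of chr10:87922314-87935981, was called at D16S+ with 13 tags (0.614 CPM, 0.327 to 1.05) and in iPSCs with 11 tags (0.414 CPM, 0.207 to 0.740). The summits lay 310 bases downstream and 1 base upstream of the 5′ end. Both regions also lie within the annotated body of Chpt1, whose own start is 16871 bases away. The iPSC value was 1 tag above the lowest summit called there, which was 10. At the iPSC level in CPM, Sycp3 would have held 8.76 tags in D16S+, 7.29 in D12S+ and 5.47 in D9T-, all below what was called in those libraries. Relative to the promoters called in all 9 libraries, Sycp3 stood at 0.344 of their median in iPSCs. That share of the D12S+ median (2.44 CPM) would have lain above the lowest summit called there (0.454 CPM). In D9T- (median 1.51 CPM) it would have lain just below the lowest (0.530 CPM). At the D16S+ level in CPM, Sycp3 would have held 10.8 tags in D12S+ and 8.11 in D9T-, beside a minimum of 8 and 7. Its interval at that level held the lowest level called in both, so by CPM these margins lay within counting error. Sycp1, on the minus strand of chr3:102622422-102740023, had no promoter region in any of the 9 libraries, with both motifs and 21 CpGs in its window.

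Tex101 was the weakest call together with Sycp3 in iPSCs. The gene lies on the minus strand of chr7:25453031-25457069, and a region of 200 bp, the shortest that the caller returned, held 11 tags in iPSCs at 81 bases upstream of the start. Its 0.414 CPM (0.207 to 0.740) fell below the lowest summit called in D9T- (0.530 CPM), D12S+ (0.454 CPM) and D16S+ (0.425 CPM). By CPM such a signal lay below what was called in those libraries. Relative to the promoters called in all 9 libraries, Tex101 stood at 0.344 of their median in iPSCs. That median was 2.44 CPM in D12S+, 2.31 in D16S+ and 1.51 in D9T-. A share of 0.344 would have lain above the lowest summits called in D12S+ and D16S+, and just below that of D9T-. The absence of a call in D12S+ and D16S+ thus depended on the scaling for its reading. At its level in CPM, Tex101 would have held 13.1 tags in D0 and 12.5 in D3, where the lowest summits called had 11 and 10. Its interval also held the levels of these (0.347 and 0.331 CPM), so by CPM a missed call in D0 or D3 lay within counting error.

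**Figure D4:**
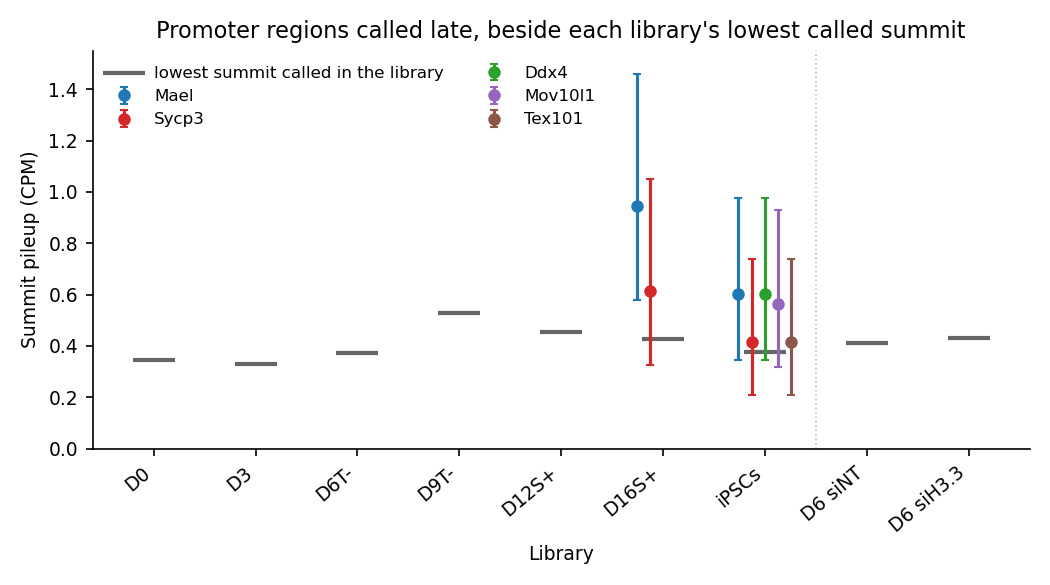
Summit pileup in CPM (y axis) of the promoter regions of Mael, Sycp3, Ddx4, Mov10l1 and Tex101 by library (x axis), as points with 95% Poisson intervals, beside the lowest summit called in each library (grey bars). All points stand in D16S+ and iPSCs, and the points of Sycp3 and Tex101 in iPSCs (0.414) lie just above the bar of that library (0.376).

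A promoter region in D16S+ and iPSCs and in no earlier time-course library, as at Mael and Sycp3, was found for 85 protein-coding genes (0.380%). One in iPSCs alone, as at Ddx4, Mov10l1 and Tex101, was found for 183 (0.818%), and 5661 genes (25.3%) had none, as Sycp1 and Asz1. Genes with the pattern of Mael and of Ddx4 had median CpG observed over expected of 0.437 and 0.312, below the lowest of the 8 germline genes. None of the 8 promoters shared its start with a gene on the other strand. The nearest start of another gene was 3902 bases away at Mov10l1 (Mlc1), 8466 at Ddx4 (Slc38a9), 9682 at Sycp3 (Gm16235) and 15395 at Mael (Ildr2). At Dazl, Sycp1, Asz1 and Tex101 it was 16013 to 54195 bases away.

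A wider list of 69 germline genes was read in the same way, and 68 of them were found in the annotation. Of these, 21 had a promoter region in D0, 35 in D3, 37 in D6T-, 17 in D9T-, 29 in D12S+, 35 in D16S+ and 48 in iPSCs. The share was 30.9% in D0 and 70.6% in iPSCs, beside the 58.0% and 63.9% of all protein-coding genes. With equally many regions kept in each library, the counts of the list were 15 in D0, 31 in D16S+ and 35 in iPSCs. The share of all protein-coding genes was not computed at this setting, so these counts have no background beside them. In iPSCs the meiosis genes had promoter regions at 19 of 22, the nuage and piRNA genes at 15 of 19, the specification and RNA-binding genes at 10 of 15 and the sperm and egg surface genes at 4 of 12. In D0 the same groups had 6, 9, 5 and 1.

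The pattern of Mael and Sycp3 was shared by 4 of the 68. Henmt1, which methylates piRNA ends, had 0.425 CPM in D16S+ and 0.564 in iPSCs. Tex12, of the synaptonemal complex, had 0.567 and 0.414, Taf7l, a germ cell TFIID subunit, 0.756 and 0.978, and Sohlh2, a transcription factor of early germ cells, 0.708 and 0.414. The pattern of Ddx4, Mov10l1 and Tex101 was shared by 6. Hormad1, of the meiotic chromosome axis, had 0.715 CPM in iPSCs, Stra8, which drives entry into meiosis, 0.640, and Stk31 0.527. Zp3, of the egg coat, had 0.489, Nanos3, needed for survival of primordial germ cells, 0.451, and Fkbp6, a co-chaperone of the piRNA pathway, 0.376.

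A further 12 genes of the list had a promoter region in all 7 time-course libraries, as had Dazl. Whether the start of a neighbouring gene lay in these windows was not read for the wider list. Stag3, a meiotic cohesin subunit, had the highest level, with 2.11 CPM in D0, 11.8 in D6T-, 6.66 in D16S+ and 2.26 in iPSCs. Prdm9, which places recombination sites, had 1.20, 5.47, 3.50 and 1.66, Mybl1, a transcription factor of piRNA genes, 0.820, 6.12, 3.02 and 1.99, and Exd1 0.977, 4.91, 3.07 and 1.77. The other members of this pattern were Tdrd7, Tdrkh, Msh5, Brdt, Prdm1, Tfap2c, Zbtb16 and Tex14. Like Dazl, these 12 genes were highest in D6T- in CPM except for Tfap2c, which had 1.59 there and 1.84 in D16S+. The median of the promoters called in all 9 libraries was also highest in D6T- (3.83 CPM). No promoter region was found in the time course for 10 genes, namely Tdrd9, Tex11, Mei1, Nanos2, Nobox, Adam2, Spam1, Zp2, Dpep3 and Prss21. Izumo1, a sperm protein needed for fusion with the egg, had 4.80 CPM in D3 and 0.752 in iPSCs and was not called in any other time-course library.

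**Figure D5:**
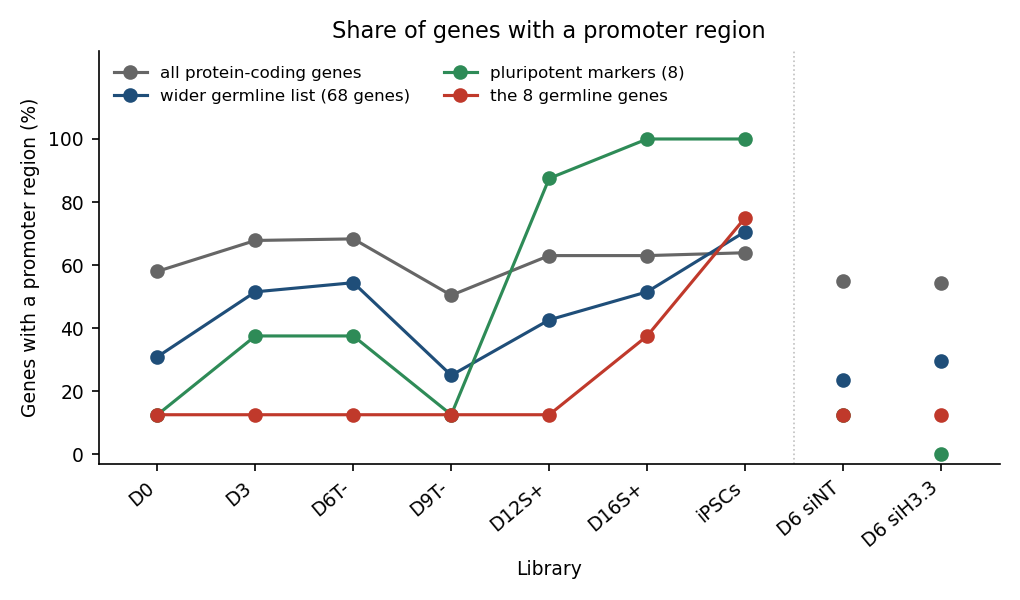
Percent of genes with a promoter region (y axis) by library (x axis), for all protein-coding genes (grey), the wider germline list (blue), 8 pluripotent markers (green) and the 8 germline genes (red), with the 2 siRNA libraries to the right of the dotted line. The red line stays at 12.5% up to D12S+ and reaches 75.0% in iPSCs, and in D6 siNT the green point is covered by the red one at 12.5%.

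The libraries were checked against markers of their labels. Of 8 pluripotent genes, promoter regions were called at 1 in D0, 3 in D3 and in D6T-, 1 in D9T-, 7 in D12S+ and 8 in D16S+ and iPSCs. Of 8 fibroblast genes, 6 had one in D0 and 5 in iPSCs, so the promoters of these genes did not set MEFs and iPSCs apart. Total tags ranged from 13213117 in D9T- to 31714845 in D0, regions from 36708 in D9T- to 133132 in D6T-, and the lowest summit called from 0.331 CPM in D3 to 0.530 in D9T-. The iPSC library, where most of the germline promoters were called, had 26580724 tags and 61615 regions, fewer than D0 and D3 in both and more than D9T-, D12S+ and D16S+ in both. Its lowest summit called (0.376 CPM) was also below those of D9T- (0.530), D12S+ (0.454) and D16S+ (0.425), and the part of this in the later calls was not tested.

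In the bodies of the 8 genes the order of the libraries was not that of their promoters. D6T- stood highest and D9T- among the lowest, as they did over all protein-coding genes. At least 1 region between the promoter and the end of the gene was called at 1 of the 8 genes in D0, 2 in D3, 5 in D6T-, none in D9T- and D12S+, 2 in D16S+ and 1 in iPSCs. Of all protein-coding genes, 43.3% had such a region in D0, 52.8% in D3, 53.5% in D6T-, 26.5% in D9T-, 37.5% in D12S+, 33.4% in D16S+ and 40.9% in iPSCs. The 5 genes in D6T- were Dazl, Ddx4, Mael, Asz1 and Mov10l1, in the library with the most regions (133132), whose 21390800 tags were fewer than those of D0, D3 and iPSCs. All summits lay in introns.

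Asz1, whose promoter was never called, held the most frequent intronic region. It lay 8495 to 8540 bases after the 5′ end, with summits between 18050521 and 18050566, and was called in D3 (21 tags, 0.695 CPM), D6T- (31 tags, 1.45 CPM), D6 siNT (22 tags, 1.01 CPM) and D6 siH3.3 (16 tags, 0.857 CPM). It was not called in D0, in D9T- or in any later library. Ddx4 had 34 tags (1.59 CPM) in D6T- at 6716 bases after its start and 12 tags at 50793 bases. Mael had a pair of regions of 14 tags each (0.654 CPM) in D6T-, and Mov10l1 had 20 tags (0.935 CPM) and 12 tags (0.561 CPM) in D6T-. The weaker Mov10l1 region was also called in D3, with 14 tags and a summit 21585 bases after the 5′ end against 21563 in D6T-. In the late libraries Sycp1 had 11 tags in D16S+ and 15 in iPSCs at different places, and Sycp3 had 14 tags in D16S+ at 1038 bases after its start. The letters TGAGTCA or TGACTCA, read by AP-1 factors, lay within 100 bases of the summit in 2 of the 8 body regions of D6T-, 1 in Ddx4 and 1 in Mael, and 27.7% of all D6T- regions held them.

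The early and transient knockdown of H3.3 was read at day 6 from D6 siH3.3 beside D6 siNT, with 1 library each. Dazl had 37 tags in D6 siH3.3 (1.98 CPM, 1.40 to 2.73) and 44 in D6 siNT (2.02 CPM, 1.47 to 2.71), which differed by less than counting error. None of the other 7 germline genes had a promoter region in either. Of all protein-coding genes, 54.8% had one in D6 siNT and 54.3% in D6 siH3.3, with 3.54% called in D6 siNT alone and 2.98% in D6 siH3.3 alone of the pair. Of the wider list, 16 genes (23.5%) were called in D6 siNT and 20 (29.4%) in D6 siH3.3, where D6T- had 37 (54.4%). With equally many regions kept in each library, the order of the pair turned, with 15 in D6 siNT and 14 in D6 siH3.3, and D6T- had 19. No share of all protein-coding genes was computed at that setting. D6T- also had 133132 regions against 46481 in D6 siNT and 47348 in D6 siH3.3. Its total of 21390800 tags was below the 21784047 of D6 siNT and above the 18669683 of D6 siH3.3. The parts of siRNA treatment and of sorting in this gap cannot be told apart.

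Body regions were called at 1 of the 8 genes in D6 siNT (Asz1) and at 2 in D6 siH3.3 (Asz1 and Ddx4), beside 30.8% and 31.1% of protein-coding genes. The Ddx4 region of D6 siH3.3 held 12 tags (0.643 CPM, 0.332 to 1.12), 6625 bases after the start and within the stretch called in D6T-. Its level was 0.643 CPM where the lowest summit called in D6 siNT was 0.413 CPM, and 1 library a condition gives no measure of whether that difference would recur.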

How the data were processed

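Reads were mapped to mm9 with STAR and duplicates were removed with Picard by the authors. Their peak caller was MACS2 (2.1.0.20151222), run with no control library and with local background off. It used a cutoff of 0.05 on q and tags of 200 bp. Pileup, deposited as a signal, is the number of tags at a summit, with no correction for depth. The deposited fold enrichment is a ratio of the pileup to the genome-wide mean, and significance was deposited as −log10 p-values and q-values. Positions of peaks and summits were deposited in mm9. The files still hold mitochondrial peaks, so the total tags of the headers, used for CPM, include them.

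Within a library, peaks that overlapped were joined into 1 region, which took its highest summit. Genes came from GENCODE vM1. The promoter was the 3 kb upstream of any transcript start, and a region that reached the gene but no promoter window counted as body. The 8 genes, the gene lists, the E-box and E2F6 letters and the CpG measure were chosen with earlier results of these data known. The AP-1 letters and the CpG limit were added after seeing values. Named genes were the 8, genes of the wider list with the pattern of one of them over the time course, and the 2 highest in D16S+ or iPSCs of each group. Henmt1, Meiob and Tfap2c were found under older symbols through RefSeq, and Rhox5 was not matched. No test between conditions was run, because each had 1 library, and intervals cover counting error only. Alternatives were stronger or equally many regions, a common floor, other promoter rules and other scalings. Tools were Python 3.11.15 with pysam 0.24.0, pandas 2.3.3, numpy 2.4.6, matplotlib 3.10.9 and scipy 1.17.1. Merging and promoter calls were tested on simulated data, where all 500 regions and 400 calls were recovered.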

Additional observations from a re-analysis of the deposited data

How the results depend on the processing

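No paired analysis was possible because each condition had 1 library. Shares of all protein-coding genes were not computed under the alternatives below. Whether a fall in the counts was particular to the germline genes was therefore not tested. With the stronger 50% of the regions, 3 germline genes kept a promoter region in iPSCs and 3 in any time-course library, and Sycp3, Mov10l1 and Tex101 had none. With the 5′ end of the gene in place of every transcript start, Dazl was lost, which left 0 of the 8 genes in D0, D3, D6T-, D9T-, D12S+, D6 siNT and D6 siH3.3. When the summit itself had to lie in the promoter window, 0 were left in D3, D6T-, D9T-, D12S+, D6 siNT and D6 siH3.3 and 1 in D16S+, and in iPSCs 4 of the 6 remained, without Dazl and Mael. Sycp3 was then first called in iPSCs. With 36708 regions in each library, Sycp3 and Tex101 had no promoter region, and the wider list fell to 20 genes in D3, 19 in D6T- and 35 in iPSCs. With promoters of 1 kb upstream and 100 bp downstream, the wider list had 16 genes in D0, 30 in D6T- and 45 in iPSCs. With 1 common floor of 0.530 CPM, 4 genes were left in iPSCs, where Tex101 and Sycp3 were lost. Scaled to promoters called in all libraries, Dazl was highest in D9T-, and Mael and Sycp3 in iPSCs. Of all counts of the 8 genes per library under these alternatives, 39 stayed within 1.5 times the value reported and 15 did not. The 39 include falls from 6 to 4 in iPSCs and from 3 to 2 in D16S+. Calls of 11 to 16 tags lie near the lowest summit called.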
